A study of Homo sapiens with 12 samples.

Results

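The subject is a set of 45 cell cycle and replication genes among the 78894 genes of the deposited table, chosen by symbol from textbook roles, with earlier results of these data known. All 45 were found. They comprise 18 genes of DNA replication and nucleotide supply, 3 cyclins of the G1 phase and 24 genes of mitosis. Expression was measured in cardiomyocytes differentiated from human induced pluripotent stem cells of WTC-mEGFP-ACTN2-cl85, also named AICS-0075-085, a single clone in which the alpha-actinin gene ACTN2 carries a heterozygous C-terminal mEGFP tag, and enriched with lactate. All groups share this line and genotype. The treatments, each given to 3 independent cultures, were vehicle, endothelin-1 at 10 nM, sacubitrilat at 16 µM, and the 2 compounds together, and lasted 48 h. Endothelin-1 is a peptide that makes cardiomyocytes enlarge, and sacubitrilat is the active form of the neprilysin inhibitor sacubitril. RNA was read as 3′-end libraries, in which a primer on the poly(A) tail marks the end of each transcript.

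A cell that divides passes from G1 through S phase, in which it copies its DNA, to G2 and mitosis. D-type cyclins with their kinases start the passage from G1 by phosphorylating the retinoblastoma protein, which frees E2F factors that switch on replication genes. Genes of mitosis are switched on later, by complexes that include B-MYB and FOXM1, and are held down in resting cells by the DREAM complex. Inhibitor proteins such as p21, the product of CDKN1A, block the kinases. Cardiomyocytes leave the cell cycle as the heart matures, while those made from stem cells still hold some cycling cells. In bulk RNA, fewer cycling cells and less cell cycle RNA per cell cannot be told apart.

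Libraries were grouped by title and treatment label. In each of the 6 libraries given 1 compound, a line of the description names the compound it did not get by those labels. The library name, also given in the description, goes with the title and treatment label. Were the differing line right, endothelin-1 and sacubitrilat would change places in all that follows. Depth differed between groups. Libraries of the single compounds held 1268308 to 1953122 counts, those with vehicle 80844 to 316932 and those with both compounds 87281 to 158791, so the single-compound libraries were on average 10.07 times as deep. Depth is alike within the pair endothelin-1 and sacubitrilat, and within the pair vehicle and both compounds; in every other comparison treatment and depth cannot be told apart. One count was worth 0.512 to 0.788 CPM (counts scaled to the library total) in the single-compound libraries and 3.15 to 12.4 CPM in the others. Of the 45 members, 29 were above 0 in all 12 libraries, and 41 passed the filter on low counts (12.62 CPM). UHRF1, FEN1, RFC4 and BUB1B did not. Of the 41, 0 were over this level in 1 group only. That does not show that each would pass without its highest group, and members other than KIF20A were not checked for this. KIF20A was over it in 5 libraries. They include every sacubitrilat library (19.71 CPM or more) and no endothelin-1 library (12.35 CPM or less). The filter asks for this level in as many libraries as a group holds. Without the sacubitrilat libraries too few remain, so KIF20A passed only through the group where it was highest.

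Cardiomyocyte markers were abundant: all 14 were detected, with a summed level of 18760 to 54510 CPM over the 12 libraries. The 9 pluripotency markers in the table summed to 0 to 22.9 CPM and 8 endothelial markers to 7.41 to 22.9 CPM. Fibroblast markers summed to 1831 to 7589 CPM, smooth muscle markers to 559.7 to 3802, endoderm markers to 3538 to 8203 and epicardial markers to 144 to 532. Epicardial markers stood at 144 to 153 CPM with endothelin-1 and at 300.4 to 349 CPM with sacubitrilat, and 5 of 6 tested were lower with endothelin-1. Cardiomyocyte markers stood at 26630 to 28180 and at 18760 to 19550 CPM in the same groups, and 7 of 14 were higher with endothelin-1. Of the smooth muscle markers, 3 of 8 were higher and 0 lower, and of the fibroblast markers 2 of 9 were lower and 0 higher. Of 9 endoderm markers 0 were called. Of all genes tested, 4.78% were lower and 6.44% higher with endothelin-1. Several marker lists thus moved in the comparison in which most members moved. Their part in the members' differences was not tested.

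Promoter sequences show the control elements known for these genes. RefSeq windows of 300 bases (250 before to 50 after the start, GRCh38.p14) were matched to 37 of the 45 members, with 1 window taken for each gene. E2F elements were searched as TTCCCGC, as TTGGCGC, as TTCGCGC and as TTGCCGC. The CHR element of mitotic genes was searched as TTTGAA and also in the form TTCGAA, and the CCAAT box by the letters of its name. All were searched on both strands, and some E2F matches overlap each other. An E2F element lay in 12 of 16 replication windows, in 5 of 20 mitotic windows and in 13.1% of the windows of all 27305 genes. A CHR element lay in 2 of 16 replication windows, 15 of 20 mitotic windows and 16.6% of all windows, and a CCAAT box in 9 of 16, 19 of 20 and 35.7%. Shown here are stretches of 120 bases at or shortly before the start and outside annotated exons, from called replication and mitotic members with small p-values between endothelin-1 and sacubitrilat that hold a match; capitals mark the matches. MCM6 (chr2:135876444-135876563 on the minus strand) encodes a subunit of the replicative helicase; its stretch holds overlapping E2F matches between CCAAT boxes that read ATTGG on this strand. GINS2 (chr16:85689000-85689119 on the minus strand) encodes a subunit of the GINS complex that activates the helicase, and its stretch holds a CCAAT box. The GINS2 stretch lies before the RefSeq start but inside the GENCODE v29 span of the gene, which begins further upstream, at position 85690073.
MCM6: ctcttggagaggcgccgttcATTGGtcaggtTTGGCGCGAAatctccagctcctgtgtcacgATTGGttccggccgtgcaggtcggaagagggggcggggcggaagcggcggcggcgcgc
GINS2: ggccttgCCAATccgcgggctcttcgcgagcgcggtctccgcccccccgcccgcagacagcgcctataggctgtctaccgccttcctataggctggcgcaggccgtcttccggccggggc

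The mitotic stretches each hold a CCAAT box, and those of TOP2A and CDC20 a CHR element. TOP2A (chr17:40417951-40418070 on the minus strand) encodes topoisomerase II alpha, which untangles sister chromatids. CDC20 (chr1:43358835-43358954 on the plus strand) encodes an activator of the ubiquitin ligase that starts anaphase, and CCNB2 (chr15:59104958-59105077 on the plus strand) encodes cyclin B2.
TOP2A: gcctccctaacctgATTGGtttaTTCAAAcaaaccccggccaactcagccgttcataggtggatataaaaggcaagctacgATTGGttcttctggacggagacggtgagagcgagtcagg
CDC20: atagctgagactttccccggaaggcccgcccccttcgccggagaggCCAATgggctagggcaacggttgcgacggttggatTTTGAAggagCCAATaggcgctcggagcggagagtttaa
CCNB2: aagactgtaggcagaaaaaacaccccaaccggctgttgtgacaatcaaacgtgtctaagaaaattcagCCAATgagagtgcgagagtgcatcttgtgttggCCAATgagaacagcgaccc
Of the members lower with endothelin-1 than with sacubitrilat that had a window, 8 of 21 held an E2F and 10 of 21 a CHR element. Of the replication and mitotic members with a window that were tested and not called in that comparison, 7 of 11 and 6 of 11 did.

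The summed levels of the classes ordered the groups differently. Mitotic members summed to 819, 801 and 1002 CPM in the vehicle libraries, 526, 528 and 508 after endothelin-1, 1054, 1046 and 1020 after sacubitrilat and 607, 554 and 545 after both. Over all 24 members the libraries that received endothelin-1, alone or with sacubitrilat, were all below those that did not. Replication members summed to 574, 1033 and 712 CPM in the vehicle libraries, 408, 415 and 435 after endothelin-1, 681, 635 and 683 after sacubitrilat and 619, 519.6 and 559.5 after both. Here the vehicle libraries spread widely, and the group with both compounds lay above endothelin-1 alone. That order rested on MCM4: without it the means were 486 ± 45.7 CPM for vehicle, 388 ± 12.5 for endothelin-1, 621 ± 27.8 for sacubitrilat and 378 ± 83.1 for both (SD, n = 3). The G1 cyclins were highest under endothelin-1, at 643 ± 30.1 CPM, against 436 ± 25.9 under sacubitrilat, 339 ± 80.4 for vehicle and 293 ± 44.1 for both. Of the 45 members, 24 have a pseudogene in the table or a count that is not whole, so reads could be split or shared. Antisense genes did not enter this count. RRM1 and KIF23, which have an antisense gene alone, are outside the 24. Over the 12 libraries the antisense gene TYMSOS held 67.5 counts beside 339 for TYMS, CCND2-AS1 held 60 beside 2966 for CCND2, and the pseudogene UBE2CP5 held 51.5 beside 511 for UBE2C. Without the 24 members the mitotic means were 306 ± 83.9 CPM for vehicle, 197 ± 10.8 for endothelin-1, 386 ± 14.3 for sacubitrilat and 240.4 ± 70.0 for both. The order was then lost: combined replicate 1, at 321 CPM, lay above vehicle replicates 1 and 2, at 284 and 235 CPM. The replication means without the 24 members, MCM4 among them, were 210.0 ± 4.76 CPM for vehicle, 199 ± 13.6 for endothelin-1, 321 ± 7.68 for sacubitrilat and 191 ± 67.9 for both. In that subset vehicle and endothelin-1 libraries overlapped, while sacubitrilat stayed above all other libraries.

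**Figure D1:**
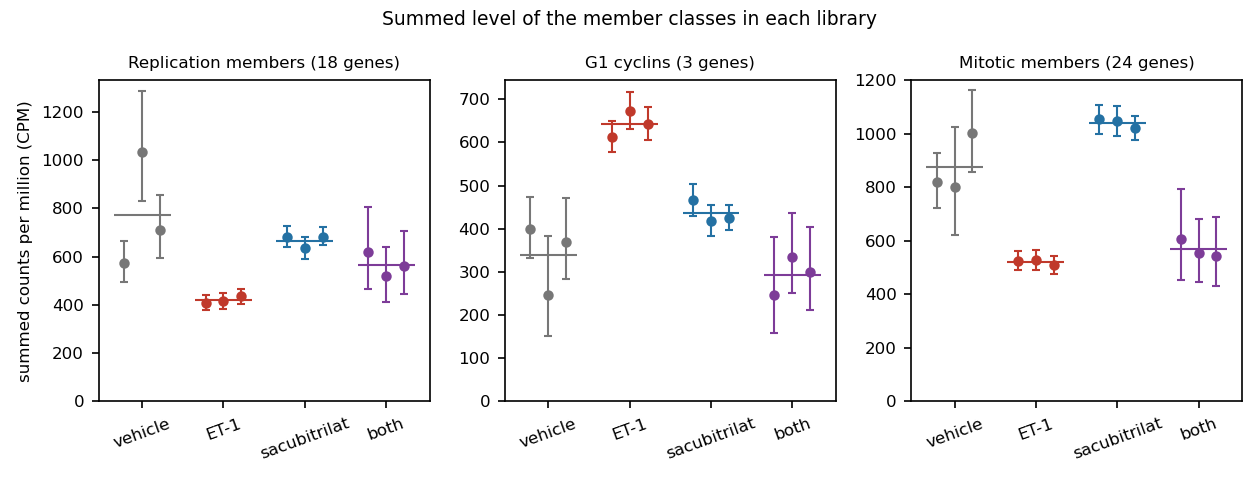
Summed CPM (vertical axis, linear from 0) of the replication, G1 cyclin and mitotic members in each library, by treatment group (horizontal axis). Points are libraries, bars are exact 95% binomial intervals that cover counting error only, and lines are group means; mitotic sums lie at 508 to 607 CPM in the 6 libraries with endothelin-1 and at 801 to 1054 CPM in the 6 without it.

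Endothelin-1 against sacubitrilat, measured in the deepest libraries, gave the most calls among the members. Of 41 tested members 25 were lower with endothelin-1, that is 61% against 4.78% of all 11203 genes tested, and 2 were higher (4.88%; 6.44% of all genes). In 33 of the 41 the 3 endothelin-1 libraries all lay below the 3 sacubitrilat libraries, which held for 25.6% of all genes. Both the 25 and the 33 include KIF20A, which passed the filter only through the sacubitrilat libraries. The median log2 fold change was -0.78, beside -0.01 over all genes. Vehicle libraries entered the shared fit but are neither of the groups compared, so this comparison does not say which compound moved the genes.

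Replication members were lower with endothelin-1 in 9 of 15 tested, with a median of -0.65, and all fitted values were negative. The helicase that opens the double helix is a ring of MCM2 to MCM7. MCM5 (ENSG00000100297, chr22:35400063-35425430) was counted at 9.73, 13.9 and 13.4 CPM with endothelin-1 and 29.8, 26.4 and 27.6 with sacubitrilat, a log2 fold change of -1.08 ± 0.21 (SE), adjusted p = 0.00033. MCM6 (ENSG00000076003, chr2:135839626-135876426) stood at 23.0, 26.5 and 20.9 against 48.5, 49.7 and 43.0 CPM (-0.88 ± 0.17 (SE), adjusted p = 0.000354). All endothelin-1 libraries of both genes lay below all sacubitrilat libraries. MCM2 (14.0, 14.9 and 11.6 against 25.0, 24.4 and 30.2 CPM; -0.88 ± 0.22 (SE), adjusted p = 0.00535) and MCM7 (32.5, 32.6 and 43.0 against 53.6, 52.8 and 56.3 CPM; -0.47 ± 0.16 (SE), adjusted p = 0.0443) were lower as well. The remaining subunits had the same sign without passing: MCM3 at -0.36 ± 0.15 (SE), adjusted p = 0.13, and MCM4 at -0.45 ± 0.26 (SE), adjusted p = 0.309.

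CDT1, which loads the MCM ring onto origins, had the largest fold change of the replication members called: 8.98, 11.5 and 12.2 CPM with endothelin-1 and 27.9, 23.6 and 29.2 with sacubitrilat (ENSG00000167513, chr16:88803213-88809258; -1.20 ± 0.22 (SE), adjusted p = 0.00011). GINS2 stood at 10.7, 10.9 and 11.6 against 22.0, 25.6 and 17.9 CPM (-0.81 ± 0.23 (SE), adjusted p = 0.0176). CDC6, the partner of CDT1, was counted at 5.47, 8.14 and 4.65 against 13.2, 7.88 and 10.8 CPM and did not pass (-0.69 ± 0.33 (SE), adjusted p = 0.2). Both called genes were lower in every endothelin-1 library. Of the genes that supply nucleotides, TK1, thymidine kinase, was at 8.98, 17.0 and 15.1 against 25.7, 42.6 and 32.8 CPM (-1.18 ± 0.25 (SE), adjusted p = 0.000785). DUT, the dUTPase, stood at 54.4, 51.6 and 57.0 against 109, 77.3 and 90.1 CPM (ENSG00000128951, chr15:48331011-48343373; -0.64 ± 0.14 (SE), adjusted p = 0.00128). RRM2, the regulated subunit of ribonucleotide reductase, was at 21.3, 15.9 and 25.3 against 37.5, 31.9 and 38.7 CPM (-0.65 ± 0.19 (SE), adjusted p = 0.0195). Again no endothelin-1 library reached the sacubitrilat libraries. The large subunit RRM1 (56.1, 61.8 and 66.9 against 70.5, 71.8 and 78.3 CPM; -0.15 ± 0.14 (SE), adjusted p = 0.588), the thymidylate synthase gene TYMS (-0.17 ± 0.17 (SE), adjusted p = 0.622) and the sliding clamp gene PCNA (-0.41 ± 0.16 (SE), adjusted p = 0.0903) did not pass.

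Of the G1 cyclins, CCND1 went the other way, CCND2 did so with a call that did not hold, and CCNE1 did not. CCND1, cyclin D1 (ENSG00000110092, chr11:69641087-69654474), stood at 323, 291 and 316 CPM with endothelin-1 and 173, 149.8 and 146 with sacubitrilat, a log2 fold change of 1.11 ± 0.11 (SE), adjusted p = 2.08e-09. CCND2, cyclin D2 (ENSG00000118971, chr12:4273772-4305350), stood at 282, 367 and 315 against 280.2, 253 and 269 CPM (0.38 ± 0.13 (SE), adjusted p = 0.0446). The endothelin-1 libraries of both genes all lay above those of sacubitrilat, narrowly for CCND2. CCNE1, cyclin E1, which acts with CDK2 at the start of S phase, did not differ detectably (8.42, 15.6 and 12.2 against 13.2, 15.0 and 11.3 CPM; -0.00 ± 0.29 (SE), adjusted p = 1). The CCND2 call was lost when any 1 of the 6 libraries compared was left out, and also without vehicle replicate 3; without endothelin-1 replicate 2 the value was 0.28 (adjusted p = 0.322). With the replicate number as a block its adjusted p was 0.21.

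Mitotic members were lower with endothelin-1 in 16 of 23 tested, with a median of -0.97, and all fitted values were negative. Among the genes that drive mitotic entry, CCNB2 (ENSG00000157456, chr15:59105078-59125045) was at 15.2, 14.9 and 15.7 against 45.5, 47.3 and 43.5 CPM (-1.44 ± 0.18 (SE), adjusted p = 2.45e-07). CCNB1, cyclin B1 (ENSG00000134057, chr5:69167010-69178245), was at 29.2, 23.8 and 25.0 against 57.3, 66.2 and 55.3 CPM (-1.05 ± 0.16 (SE), adjusted p = 7.42e-06). CDK1, the kinase both cyclins activate, was at 7.86, 12.9 and 7.56 against 19.8, 31.5 and 22.0 CPM (-1.25 ± 0.26 (SE), adjusted p = 0.000641). In each of these 3 genes the groups did not overlap. The Polo-like kinase gene PLK1 (12.8 to 14.0 against 18.9 to 40.5 CPM; -1.09 ± 0.24 (SE), adjusted p = 0.00144) and the Aurora B kinase gene AURKB (7.56 to 14.2 against 24.8 to 31.6 CPM; -1.23 ± 0.24 (SE), adjusted p = 0.000419) were lower too. The Aurora A kinase gene AURKA had overlapping groups (30.8 to 37.6 against 36.0 to 47.3 CPM; -0.16 ± 0.17 (SE), adjusted p = 0.647), as did the checkpoint kinase gene BUB1 (-0.23 ± 0.21 (SE), adjusted p = 0.565). CCNA2, cyclin A2, did not pass (-0.51 ± 0.26 (SE), adjusted p = 0.241).

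Regulators of anaphase and of chromosome structure followed. CDC20 (ENSG00000117399, chr1:43358955-43363203) was at 40.7, 49.5 and 45.4 against 99.2, 118 and 98.3 CPM (-1.10 ± 0.14 (SE), adjusted p = 2.26e-07). TOP2A (ENSG00000131747, chr17:40388516-40417950) was at 34.2, 33.9 and 36.6 against 99.2, 91.8 and 79.9 CPM (-1.23 ± 0.16 (SE), adjusted p = 2.26e-07). The groups were well apart in both genes. UBE2C, the conjugating enzyme of the anaphase ligase, was at 34.8, 31.9 and 27.3 against 65.4, 60.7 and 72.7 CPM (-0.97 ± 0.15 (SE), adjusted p = 7.1e-06), and PTTG1, the securin that inhibits separase until anaphase, at 29.2, 23.8 and 26.8 against 40.4, 38.6 and 47.6 CPM (-0.56 ± 0.17 (SE), adjusted p = 0.0247). MKI67, the Ki-67 antigen used to stain cycling cells, was at 27.5, 30.5 and 35.5 against 76.4, 60.7 and 59.9 CPM (-0.94 ± 0.16 (SE), adjusted p = 5.68e-05). BIRC5, survivin, was at 28.1, 21.7 and 32.0 against 63.2, 64.7 and 61.4 CPM (-1.07 ± 0.17 (SE), adjusted p = 1.59e-05). Ranges of these 4 genes did not overlap either.

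The centromere and spindle genes were less even. CENPF, a kinetochore protein, was at 43.2, 38.7 and 36.1 against 79.3, 80.4 and 72.2 CPM (-0.84 ± 0.15 (SE), adjusted p = 7.2e-05). The spindle assembly genes TPX2 (37.6 to 50.9 against 71.0 to 86.7 CPM; -0.64 ± 0.16 (SE), adjusted p = 0.00424) and NUSAP1 (12.2 to 13.8 against 22.8 to 34.3 CPM; adjusted p = 0.00161) were lower. The kinesins of cytokinesis KIF20A (7.46 to 12.3 against 19.7 to 35.3 CPM; -1.27 ± 0.27 (SE), adjusted p = 0.000781) and KIF23 (4.07 to 6.74 against 12.8 to 18.9 CPM; -1.26 ± 0.32 (SE), adjusted p = 0.00651) were lower, whereas KIF11, the motor that separates spindle poles, did not pass (-0.73 ± 0.30 (SE), adjusted p = 0.122). KIF20A entered the test only through the sacubitrilat libraries, where it was highest, so its call is not taken as support. The centromeric histone gene CENPA (-0.78 ± 0.32 (SE), adjusted p = 0.12), the spindle pole gene ASPM (-0.45 ± 0.21 (SE), adjusted p = 0.186) and CKS2, a small partner of cyclin-dependent kinases (-0.40 ± 0.18 (SE), adjusted p = 0.179), did not pass.

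Of the 27 calls, 17 held whichever of the 12 libraries was left out. Beside CCND2, the replication calls lost were MCM2 without sacubitrilat replicate 3 (adjusted p up to 0.0764), MCM7 without endothelin-1 replicate 1 or 2 or sacubitrilat replicate 1 or 2 or 3 (adjusted p up to 0.212), RRM2 without endothelin-1 replicate 1 or 2 or sacubitrilat replicate 1 or 3 (adjusted p up to 0.144) and GINS2 without endothelin-1 replicate 1 or 2 or 3 or sacubitrilat replicate 1 or 2 (adjusted p up to 0.113). The mitotic calls lost were PLK1 without sacubitrilat replicate 3 (adjusted p up to 0.113), TPX2 without endothelin-1 replicate 1 or sacubitrilat replicate 1 (adjusted p up to 0.0665), PTTG1 without endothelin-1 replicate 2 or 3 or sacubitrilat replicate 1 or 3 (adjusted p up to 0.235), KIF20A without sacubitrilat replicate 3 (adjusted p up to 0.0843) and KIF23 without endothelin-1 replicate 3 or sacubitrilat replicate 2 (adjusted p up to 0.0629). Without sacubitrilat replicate 3, PLK1 and KIF20A were at -0.71 and -0.86. When every library was thinned to 80000 counts, 0 members were called by edgeR and 7 had an unadjusted p under 0.05; of all genes, 11 were then called, against 1257 at full depth.

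**Figure D2:**
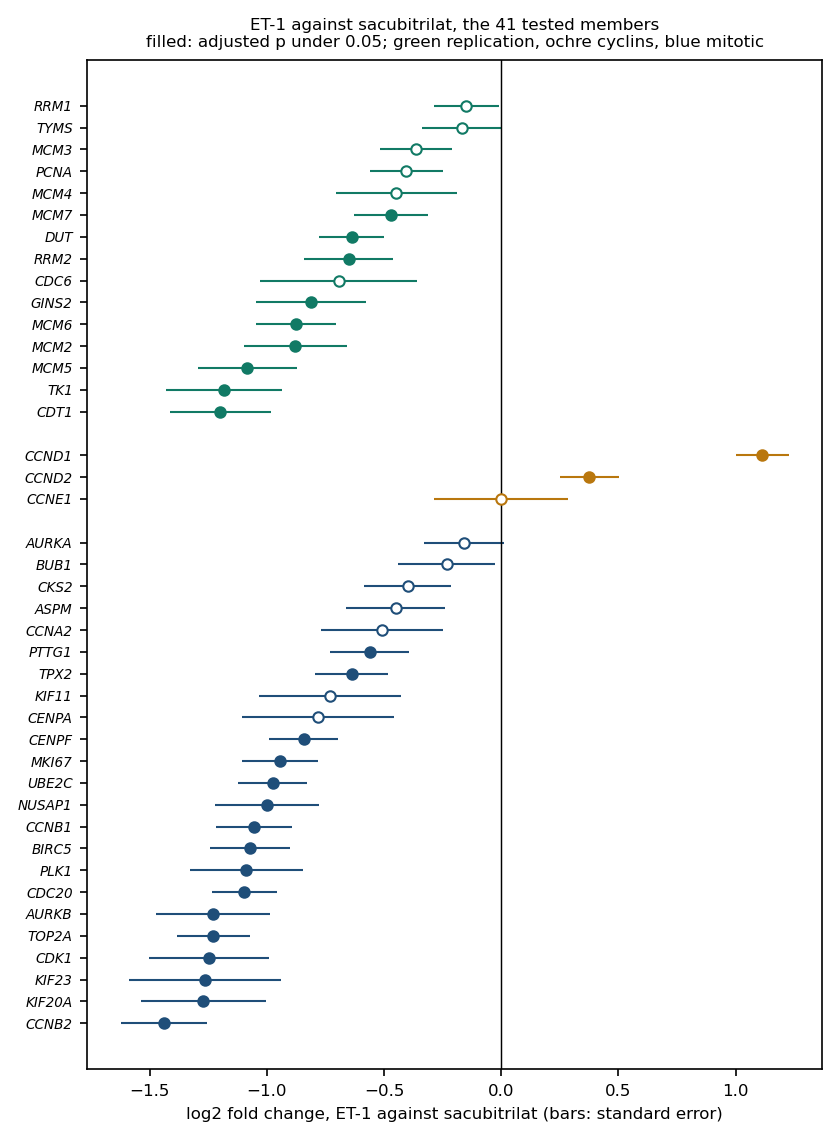
Log2 fold change, endothelin-1 against sacubitrilat, with its standard error (horizontal axis, linear), of the 41 tested members ordered within replication, G1 cyclin and mitotic classes. Filled points passed adjusted p under 0.05; 25 filled points lie left of 0, and CCND1 (1.11) and CCND2 (0.38) right of it.

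Replication sums stood higher beside mitotic sums with endothelin-1 than with sacubitrilat. Leaving out MCM4 was chosen after seeing the data. The ratio of replication counts, leaving out MCM4, to mitotic counts was 0.717, 0.732 and 0.791 in the endothelin-1 libraries and 0.608, 0.563 and 0.619 in the sacubitrilat libraries, so that the 3 libraries with endothelin-1 were all higher. The vehicle libraries gave 0.597, 0.548 and 0.529, and those with both compounds 0.472, 0.722 and 0.823. The mean ratio was 0.747 ± 0.0389 for endothelin-1 and 0.597 ± 0.0298 for sacubitrilat (SD, n = 3), and the group with both compounds overlapped the rest. No test of the ratio was run.

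Endothelin-1 against vehicle, a primary comparison of the design, moved fewer members past the threshold. Of 41 tested, 8 were lower (19.5%; 12.2% of all genes) and 2 higher (4.88%; 11% of all genes). The median was -0.68, beside 0.10 over all genes. MCM4 (ENSG00000104738, chr8:47960185-47978160) had 85.2, 594 and 182 CPM under vehicle and 30.9, 29.2 and 33.1 under endothelin-1, a log2 fold change of -2.58 ± 0.33 (SE), adjusted p = 2.01e-07. The vehicle libraries of MCM4 spread widely, the highest being vehicle replicate 2, the shallowest of the 12. Without it the change was -1.99 (adjusted p = 3.7e-06). DUT (107, 49.5 and 106 against 54.4, 51.6 and 57.0 CPM; -0.82 ± 0.26 (SE), adjusted p = 0.019) and GINS2 (28.4, 37.1 and 23.4 against 10.7, 10.9 and 11.6 CPM; -1.31 ± 0.44 (SE), adjusted p = 0.0262) also fell, though the DUT groups overlapped. In the same comparison 0 of 9 endoderm markers were higher and 7 lower, 1 of 9 fibroblast markers were lower and 4 higher, 0 of 8 smooth muscle markers were lower and 6 higher, and 8 of 14 cardiomyocyte markers were higher and 2 lower. Epicardial markers were higher in 0 and lower in 3 of 6. Their part in the members' differences was not tested.

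Of the mitotic members, 5 of 23 fell. MKI67 stood at 88.3, 37.1 and 52.7 CPM with vehicle (-1.14 ± 0.31 (SE), adjusted p = 0.00577), and CCNB1 at 60.0, 49.5 and 64.5 (-1.16 ± 0.31 (SE), adjusted p = 0.00545). BIRC5 stood at 82.0, 89.7 and 35.2 CPM (-1.28 ± 0.32 (SE), adjusted p = 0.00295) and UBE2C at 63.1, 74.2 and 58.6 (-0.98 ± 0.29 (SE), adjusted p = 0.0119). CDK1 stood at 18.9, 37.1 and 35.2 CPM (-1.47 ± 0.49 (SE), adjusted p = 0.0274). Every vehicle library of these 5 genes lay above every endothelin-1 library. The share of all genes whose groups do not overlap was not counted in this comparison, so the separation is not read as particular to the members. TOP2A and CDC20, lower than with sacubitrilat, did not pass here, at -0.61 ± 0.34 (SE), adjusted p = 0.2, and -0.51 ± 0.30 (SE), adjusted p = 0.223. CCND1 rose from 158, 136 and 199 CPM (0.93 ± 0.18 (SE), adjusted p = 0.000223) and CCND2 from 235, 99.0 and 169.9 CPM (0.77 ± 0.20 (SE), adjusted p = 0.0041), with no overlap.

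MCM4, CCND1 and CCND2 kept the call whichever library was left out, but CCND2 ranged from 0.56 without vehicle replicate 2 to 1.27 without vehicle replicate 1. Without vehicle replicate 1, the deepest vehicle library, 5 members were called. The mitotic genes then lost were MKI67 at -0.47 (adjusted p = 0.52), BIRC5 at -0.76 (0.27), CCNB1 at -1.04 (0.0916) and UBE2C at -0.87 (0.134). The replication genes were DUT at -0.54 (0.33) and GINS2 at -1.18 (0.193). Other single libraries also decided calls: CDK1 without vehicle replicate 2 or 3 or endothelin-1 replicate 1 or 3 (adjusted p up to 0.164), DUT without vehicle replicate 1 or 3 (adjusted p up to 0.33) and GINS2 without vehicle replicate 1 or 2 (adjusted p up to 0.193). Thinned to 80000 counts, 3 members passed, and 2 of them were also called at full depth. Those were MCM4 (-2.84, adjusted p = 2.14e-07) and CCND2 (1.25, 0.0106), while CCND1 did not pass (0.64, 0.336).

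**Figure D3:**
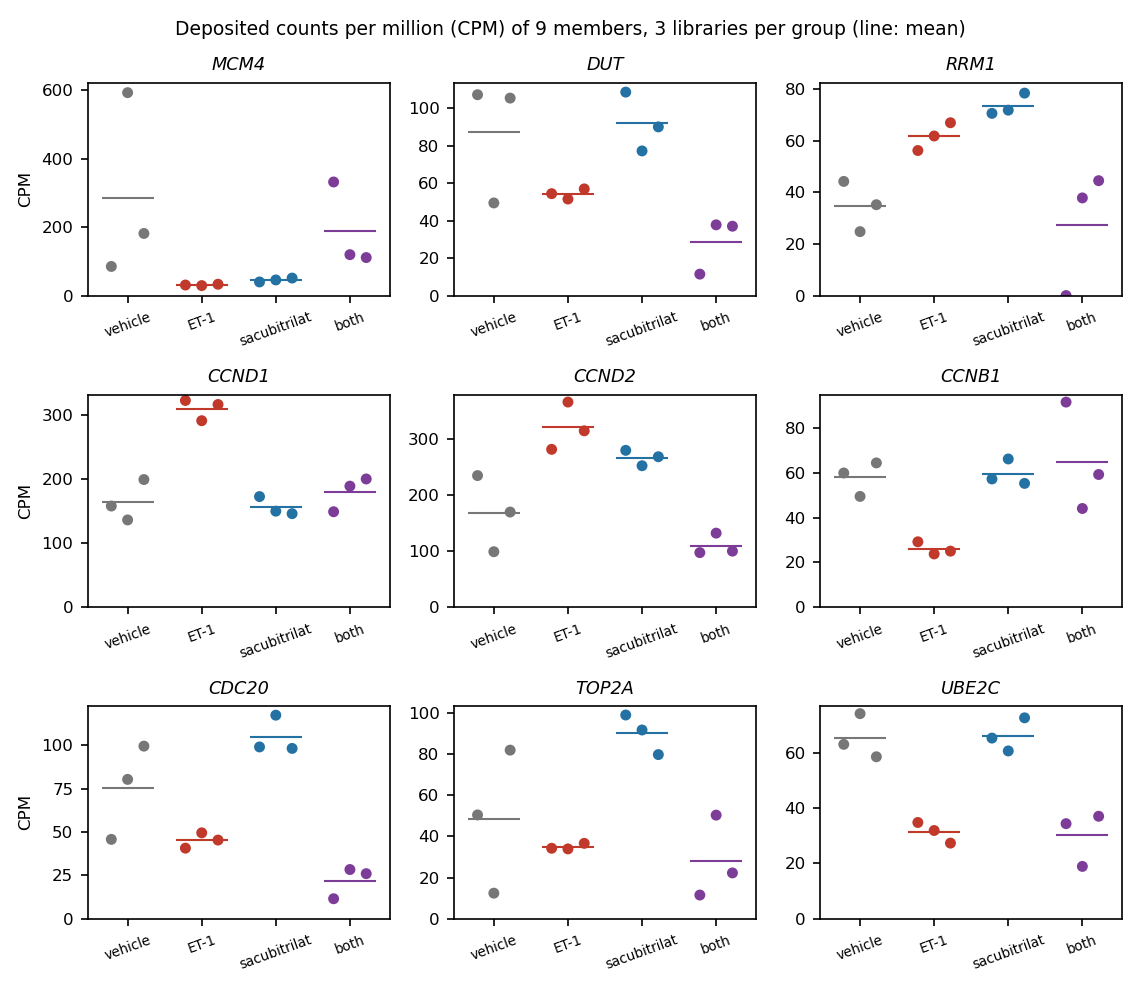
Deposited CPM (vertical axes, linear from 0) of 9 members in the 12 libraries, by group (horizontal axis); points are libraries and lines are group means. CCND1 is highest with endothelin-1 (291 to 323 CPM), CDC20 reaches 118 CPM with sacubitrilat, and MCM4 reaches 594 CPM in 1 vehicle library.

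Adding sacubitrilat to endothelin-1, the design's other primary comparison, called 2 members higher (4.88%; 16.6% of all genes) and 2 lower (4.88%; 17.8% of all genes). The median was -0.07, beside -0.23 over all genes. Both D cyclins fell, CCND1 to 149, 189 and 200.1 CPM (-0.80 ± 0.20 (SE), adjusted p = 0.00251) and CCND2 to 97.4, 132 and 100 CPM (-1.54 ± 0.26 (SE), adjusted p = 1.73e-05). All libraries with both compounds lay below all those with endothelin-1 alone. How many of all genes separate in this comparison was not counted, so separation here is not read as particular to the members. MCM4 rose to 332, 119.7 and 111 CPM (2.37 ± 0.40 (SE), adjusted p = 1.6e-05) and CCNB1 to 91.7, 44.1 and 59.3 CPM (1.17 ± 0.37 (SE), adjusted p = 0.0123), again without overlap. The call lost in leave-one-out fits was CCNB1 without combined replicate 1 or 3 (adjusted p up to 0.0727). Neither UBE2C, at 34.4, 18.9 and 37.0 CPM with both (-0.15 ± 0.44 (SE), adjusted p = 0.809), nor MKI67, at 57.3, 63.0 and 44.5 (0.78 ± 0.39 (SE), adjusted p = 0.118), passed. With both compounds 6 of 9 endoderm markers were higher and 0 lower, 6 of 9 fibroblast markers were lower and 1 higher, 5 of 8 smooth muscle markers were lower and 0 higher, and 5 of 14 cardiomyocyte markers were higher and 6 lower. Epicardial markers were higher in 1 and lower in 0 of 6. The part of these lists in the members' values was not tested.

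Counts show how MCM4 differed from its class. MCM4 held 27, 48 and 31 counts in the vehicle libraries, 55, 43 and 57 after endothelin-1, 54.25, 58 and 100 after sacubitrilat and 29, 19 and 15 after both, although depth differed 10.07 times on average. Its share of the replication counts was 14.8, 57.5 and 25.5% for vehicle and 53.7, 23.0 and 19.9% for both compounds, but 7.57, 7.03 and 7.63% for endothelin-1 and 5.85, 7.2 and 7.5% for sacubitrilat. The other 17 replication members together held 155, 35.5 and 90.5 counts in the vehicle libraries and 671.58, 569 and 690.5 after endothelin-1. MCM4 was called in 4 of the 6 pairwise comparisons, each of which sets shallow libraries against deep ones. It was not called between libraries of like depth, at -0.45 ± 0.26 for endothelin-1 against sacubitrilat and -0.20 ± 0.38 for both against vehicle.

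Sacubitrilat against vehicle called 1 member lower (2.44%; 11.2% of all genes) and 1 higher (2.44%; 8.68% of all genes), with a median of 0.28 beside 0.14 over all genes. MCM4 was lower, at 39.8, 45.7 and 51.2 CPM (-2.13 ± 0.32 (SE), adjusted p = 3.93e-06). PLK1 was higher, at 28.6, 18.9 and 40.5 CPM against 3.15, 24.7 and 5.86 with vehicle (2.02 ± 0.64 (SE), adjusted p = 0.0224), but its vehicle values are 1, 2 and 1 counts and the groups overlapped. That call was lost for PLK1 without vehicle replicate 1 or 3 or sacubitrilat replicate 3 (adjusted p up to 0.23). Among the most counted mitotic members, CDC20 (0.59 ± 0.26), CENPF (0.11 ± 0.27), MKI67 (-0.19 ± 0.28) and CCNB1 (-0.10 ± 0.28) did not pass, nor did CCND1 (-0.18 ± 0.20) or CCND2 (0.40 ± 0.21). Here 1 of 9 endoderm markers were higher and 6 lower, 0 of 9 fibroblast markers were lower and 2 higher, 0 of 8 smooth muscle markers were lower and 3 higher, and 3 of 14 cardiomyocyte markers were higher and 4 lower. Epicardial markers were higher in 1 and lower in 1 of 6. Their part was not tested.

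Both compounds against sacubitrilat alone called 9 members lower (22%; 17.8% of all genes) and 1 higher (2.44%; 17.2% of all genes), with a median of -0.59 beside -0.25 over all genes. CDC20 was at 11.5, 28.3 and 25.9 CPM with both compounds (-2.05 ± 0.42 (SE), adjusted p = 0.000223), and PTTG1 at 22.9, 12.6 and 7.41 CPM (-1.62 ± 0.55 (SE), adjusted p = 0.0201). TOP2A (11.5, 50.4 and 22.2 CPM; -1.42 ± 0.41 (SE), adjusted p = 0.00715), CCNB2 (11.5, 12.6 and 22.2 CPM; -1.43 ± 0.49 (SE), adjusted p = 0.0214), CENPF (11.5, 31.5 and 37.0 CPM; -1.33 ± 0.41 (SE), adjusted p = 0.011) and UBE2C (-1.13 ± 0.39 (SE), adjusted p = 0.0233) were lower as well. In each of these genes the libraries with both compounds lay below the sacubitrilat libraries. How often that held among all genes was not counted, so it is not read as particular to these genes. DUT (11.5, 37.8 and 37.0 CPM; -1.46 ± 0.40 (SE), adjusted p = 0.00472), RRM1 (0, 37.8 and 44.5 CPM; -1.15 ± 0.41 (SE), adjusted p = 0.0279) and CCND2 (-1.17 ± 0.27 (SE), adjusted p = 0.00101) were lower, and MCM4 was higher (1.93 ± 0.38 (SE), adjusted p = 0.000167). The values with both compounds rest on few counts, 1, 4.5 and 3.5 for CDC20 and 1, 8 and 3 for TOP2A. In this comparison 6 of 9 endoderm markers were higher and 1 lower, 5 of 9 fibroblast markers were lower and 1 higher, 3 of 8 smooth muscle markers were lower and 0 higher, and 6 of 14 cardiomyocyte markers were higher and 4 lower. Epicardial markers were higher in 1 and lower in 2 of 6. Their part was not tested.

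Without combined replicate 1, the shallowest library with both compounds, 4 members were called against sacubitrilat: MCM4, CCND2, CDC20 and PTTG1. CENPF, DUT, TOP2A, CCNB2, UBE2C and RRM1 were then at -0.96, -1.08, -1.04, -1.19, -1.08 and -0.64. Without combined replicate 2, TOP2A was at -2.26. Over all libraries left out in turn, the calls lost were TOP2A without combined replicate 1 or 3 (adjusted p up to 0.0755); CCNB2 without combined replicate 1 or 2 (adjusted p up to 0.114); UBE2C without sacubitrilat replicate 3 or combined replicate 1 or 2 (adjusted p up to 0.177); PTTG1 without sacubitrilat replicate 3 or combined replicate 2 or 3 (adjusted p up to 0.121); RRM1 without sacubitrilat replicate 2 or 3 or combined replicate 1 or 2 (adjusted p up to 0.248); CENPF without combined replicate 1 (adjusted p up to 0.105); and DUT without combined replicate 1 (adjusted p up to 0.0572).

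Both compounds against vehicle, with like depths, called 0 of the 41 members by edgeR, beside 0.179% of all genes called in either direction. Of the members, 6 had an unadjusted p under 0.05, and DESeq2 called 1. The fitted values of the D cyclins were 0.13 ± 0.27 for CCND1 and -0.77 ± 0.33 for CCND2. CDC20 was at -1.47 ± 0.54 (SE), adjusted p = 0.251, and DUT at -1.64 ± 0.46 (SE), adjusted p = 0.126. Members were read in few counts in these 6 libraries, so the comparison cannot show that they were alike.

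**Figure D4:**
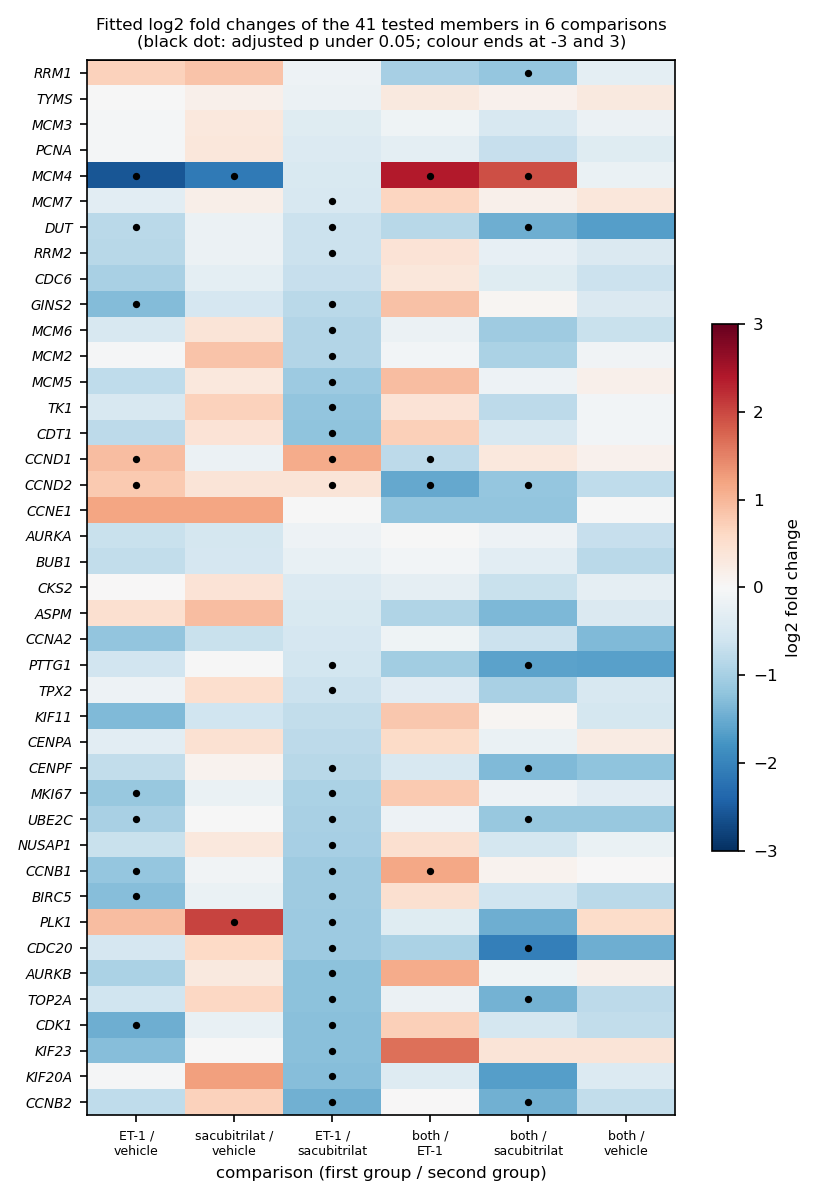
Fitted log2 fold changes (colour, from -3 to 3) of the 41 tested members (vertical axis, by class) in 6 comparisons (horizontal axis), with a black dot where adjusted p was under 0.05. The column of endothelin-1 over sacubitrilat carries 27 dots and the column of both over vehicle none; MCM4 carries 4 dots, CCND2 4 and CCND1 3.

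The interaction asks whether the effect of endothelin-1 differed with and without sacubitrilat. It called 5 of 41 members, beside 46.1% of all genes in either direction. It sets the 6 deep libraries against the 6 shallow ones, so treatment and depth cannot be told apart in it. MCM4 (4.50 ± 0.52 (SE), adjusted p = 5.01e-09) and CCNB1 (1.27 ± 0.46 (SE), adjusted p = 0.0212) had positive values. CCND2 (-1.94 ± 0.34 (SE), adjusted p = 1.32e-05), RRM1 (-1.85 ± 0.53 (SE), adjusted p = 0.00451) and CDC20 (-1.55 ± 0.55 (SE), adjusted p = 0.0197) had negative ones. RRM1 stood at 44.2, 24.7 and 35.2 CPM with vehicle and 0, 37.8 and 44.5 with both, 1 library being at 0. The calls lost when 1 library was left out were CCNB1 without vehicle replicate 1 or combined replicate 1 (adjusted p up to 0.0813) and CDC20 without vehicle replicate 1 or combined replicate 1 (adjusted p up to 0.102). Without the 2 shallowest libraries, vehicle replicate 2 and combined replicate 1, RRM1 was at -1.18 (adjusted p = 0.051) and CDC20 at -1.16 (0.098).

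The 4 members below the filter were read in few counts. UHRF1, which carries DNA methylation through replication, was at 5.89, 6.79 and 6.98 CPM with endothelin-1 and 7.71, 6.70 and 9.22 with sacubitrilat. FEN1, the flap nuclease of Okazaki fragments, was at 11.8, 9.50 and 11.1 and 11.02, 18.1 and 14.1 CPM in these groups, and at 0 in all 3 libraries with both. Set against 3 counts over that group, FEN1 was at least 1.38-fold higher with endothelin-1 and at least 1.82-fold higher with sacubitrilat. RFC4, a subunit of the clamp loader, was at 3.37, 3.39 and 4.65 and 8.81, 7.88 and 7.68 CPM in the single-compound groups. BUB1B, a checkpoint kinase, was at 6.17, 5.43 and 3.49 and 8.81, 11.4 and 14.6 CPM. RFC4 and BUB1B were lower in every endothelin-1 library than in any sacubitrilat library, but how often that holds among unfiltered genes was not counted. In the edgeR fit without a filter neither was called between these groups. RFC4 was at -0.94 ± 0.40 (SE), adjusted p = 0.327, and BUB1B at -1.095 ± 0.34 (SE), adjusted p = 0.0568.

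Other genes of the same processes gave a wider view of endothelin-1 against sacubitrilat. Of all genes tested in it, 4.78% were lower and 6.44% higher. Of 50 tested further genes of G2 and mitosis, 26 were lower (52%) and 0 higher, with a median of -0.77. The spindle gene TACC3 (-1.02 ± 0.15 (SE), adjusted p = 3.77e-06), the condensin subunit SMC4 (-0.96 ± 0.15 (SE), adjusted p = 7.42e-06) and MYBL2, which encodes B-MYB (-0.84 ± 0.14 (SE), adjusted p = 5.7e-05), had the smallest p-values. Of 34 tested further replication genes, 5 were lower (14.7%) and 0 higher, with a median of -0.48. Among them were the GINS subunit GINS4 (-1.67 ± 0.33 (SE), adjusted p = 0.000352), the chromatin remodeller HELLS (-0.81 ± 0.18 (SE), adjusted p = 0.00149) and the histone chaperone NASP (-0.57 ± 0.13 (SE), adjusted p = 0.00263). Of 23 tested genes of G1 control, 3 were lower (13%) and 1 higher (4.35%, below the share of all genes). The E2F1 transcription factor gene (-0.98 ± 0.22 (SE), adjusted p = 0.00168) and the cyclin D partner CDK4 (-0.40 ± 0.11 (SE), adjusted p = 0.0152) were lower, and CCNG1, cyclin G1 (0.38 ± 0.11 (SE), adjusted p = 0.0243), was higher.

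With endothelin-1 against vehicle, 6 of 50 further mitotic genes fell and 0 rose. The share that fell, 12%, was close to that of all genes (12.2%). Those with the smallest p-values were the kinetochore gene SPC24 (-2.08 ± 0.42 (SE), adjusted p = 0.000325), the condensin subunit NCAPD2 (-1.05 ± 0.33 (SE), adjusted p = 0.0158) and TACC3 (-0.95 ± 0.30 (SE), adjusted p = 0.0166). Of 34 replication genes 7 fell (20.6%) and 2 rose, the former including GINS4 (-2.92 ± 0.49 (SE), adjusted p = 2.4e-05), NASP (-1.05 ± 0.22 (SE), adjusted p = 0.000415) and the replication protein A subunit RPA3 (-2.04 ± 0.47 (SE), adjusted p = 0.00138). Of the G1 genes, 2 of 23 rose, CDK6, another partner of D cyclins (1.04 ± 0.22 (SE), adjusted p = 0.000549), and CCNG1 (0.88 ± 0.23 (SE), adjusted p = 0.00545), and 0 fell. The share that rose, 8.7%, was below that of all genes (11%).

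Inhibitors of cyclin-dependent kinases were read beside the members. CDKN1A was at 37.1 to 167 CPM for vehicle, 639 to 716 for endothelin-1, 305 to 362 for sacubitrilat and 68.7 to 113 for both. It was higher with endothelin-1 than with sacubitrilat (1.16 ± 0.15 (SE), adjusted p = 1.89e-07), in the same comparison in which CCND1 was higher and 25 members were lower. It was also higher than vehicle with endothelin-1 (2.33 ± 0.22 (SE), adjusted p = 5.22e-10) and with sacubitrilat (1.18 ± 0.24 (SE), adjusted p = 0.000369). With both compounds CDKN1A was lower than with endothelin-1 (-2.82 ± 0.27 (SE), adjusted p = 1.88e-10) and than with sacubitrilat (-1.66 ± 0.29 (SE), adjusted p = 2.73e-05). Between both compounds and vehicle it was not called (-0.49 ± 0.38 (SE), adjusted p = 0.669). CDKN1B, which encodes p27, was at 23.8 to 26.5 and 26.4 to 34.6 CPM with the single compounds (-0.16 ± 0.18 (SE), adjusted p = 0.664), and CDKN1C, which encodes p57, at 50.6 to 65.1 and 59.1 to 67.1 CPM (-0.00 ± 0.15 (SE), adjusted p = 1); neither difference was detectable. CDKN2A, the INK4A and ARF locus, was at 41.02 to 74.2 CPM for vehicle, 29.2 to 31.4 for endothelin-1 and 2.37 to 11.3 for sacubitrilat. It was higher with endothelin-1 than with sacubitrilat (2.08 ± 0.26 (SE), adjusted p = 1.84e-07), lower with sacubitrilat than with vehicle (-2.86 ± 0.42 (SE), adjusted p = 3.33e-06) and not called for endothelin-1 against vehicle (-0.78 ± 0.33 (SE), adjusted p = 0.0853). CDKN2B, which encodes p15, was higher than vehicle with endothelin-1 (1.60 ± 0.43 (SE), adjusted p = 0.00596) and with sacubitrilat (1.44 ± 0.44 (SE), adjusted p = 0.0175), and not called between them (0.16 ± 0.16 (SE), adjusted p = 0.612). With both compounds CDKN2B was lower than with endothelin-1 (-2.34 ± 0.60 (SE), adjusted p = 0.00251) and than with sacubitrilat (-2.18 ± 0.615 (SE), adjusted p = 0.00555). Where single-compound libraries are set against vehicle or both compounds, treatment and depth of these inhibitors cannot be told apart. Any part of the inhibitors in the levels of the members was not tested.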

How the data were processed

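Poly(A) RNA from 12 cultures, 3 in each of 4 groups, was read as stranded 3′-end libraries with molecular identifiers, per the labels' protocols. For each gene the authors deposited an estimated count, whole or fractional (21.05% of values above 0 are not whole), and a CPM value, which in the deposited table equals the count over the library's total. The submitters' processing notes name fastp 0.24.0, featureCounts and the build GRCh38. The choice of aligner, annotation, strand setting and identifier handling is not given in the sources used here. Gene positions are those of GENCODE v29 (GRCh38). All 92 spike-in rows were 0 and were left out.

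Counts were rounded and all 12 libraries fitted together with edgeR 4.0.16 (R 4.3.3; quasi-likelihood test, TMM scaling, filterByExpr, Benjamini-Hochberg adjustment over 11203 genes, threshold 0.05). Comparisons were the 6 pairs of groups and the interaction. The code was tested on simulated data. Alternatives were RLE scaling, no filter, DESeq2 1.42.0, the replicate number as a block, the compared groups alone, thinning to 80000 counts and leaving out each library. Fitting without the 2 shallowest libraries and summing without MCM4 were added after seeing the data. Intervals are exact (Clopper-Pearson) and cover counting error only; depth ran from 80844 to 1953122 counts.

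The members and lists were chosen with earlier results of these data known. Members named with values are those called in endothelin-1 against sacubitrilat or in at least 2 of the 6 pairs, the 4 most counted replication and mitotic members and the 3 cyclins; CDKN1A, CDKN1B and CDKN1C are given always, and of the other lists up to 3 called genes with the smallest p-values. Other members, CDKN2A and CDKN2B were named to account for the set, after their values were seen. 260 of 261 list genes were matched by symbol.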

Additional observations from a re-analysis of the deposited data

Results flagged for a closer look

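The difference between the endothelin-1 effect with and without sacubitrilat passed the test of that difference (edgeR's quasi-likelihood test) in 5 members. On the log2 scale it was 4.50 for MCM4 and 1.27 for CCNB1, which were higher with both compounds than the single effects add up to. It was -1.94 for CCND2, -1.85 for RRM1 and -1.55 for CDC20, which were lower. The same test passed in 46.1% of all genes, and it sets deep libraries against shallow ones, so treatment and depth cannot be told apart. Without the 2 shallowest libraries RRM1 was at -1.18 (adjusted p = 0.051) and CDC20 at -1.16 (0.098).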

How the results depend on the processing

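Counts of members called are given in the order endothelin-1 against sacubitrilat, endothelin-1 against vehicle, both against endothelin-1, sacubitrilat against vehicle, both against sacubitrilat, both against vehicle, and the interaction. They were 27, 10, 4, 2, 10, 0 and 5 as reported, 27, 10, 4, 3, 10, 0 and 5 with RLE scaling, 23, 4, 7, 6, 18, 1 and 12 with no filter and 23, 10, 5, 1, 8, 1 and 7 with DESeq2. With the compared groups alone they were 29, 11, 4, 1, 8 and 0; the interaction needs all groups and was not run that way. Thinned to 80000 counts they were 0, 3, 2, 1, 4, 0 and 3; GINS2 and TK1 then reversed in endothelin-1 against sacubitrilat, to 0.471 and 0.287, and the cause was not tested. Leaving out each library in turn gave 20 to 27, 5 to 11, 3 to 5, 1 to 2, 4 to 10, 0 to 1 and 3 to 7. Without the 2 shallowest libraries (vehicle replicate 2 and combined replicate 1), an alternative chosen after seeing the data, the counts were 27, 13, 3, 2, 7, 0 and 5; of the last, 3 are members called in the interaction as reported, and RRM1 and CDC20 lost the call.

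With the replicate number as a block the counts were 24, 10, 4, 2, 10, 0 and 5; in endothelin-1 against sacubitrilat MCM7, CCND2 and PTTG1 lost the call. Same-numbered libraries did not deviate together (r from -0.149 to 0.0467 over 18 pairs, 0 above 0.1), so the numbers are not taken to pair the cultures. Depth limits every comparison with vehicle or both compounds, whose libraries hold few counts of most members.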
